A study of Mus musculus with 80 samples.

Results

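The 10 genes described here are members of the Notch pathway known to hold muscle stem cells (MuSCs) in quiescence. They are the receptors *Notch1*, *Notch2* and *Notch3*, the ligands *Dll1*, *Dll4* and *Jag1*, the nuclear effector *Rbpj*, and the targets *Hes1*, *Hey1* and *Heyl*. They were chosen by symbol from the 25899 genes of the table, and all 10 passed the filter on low values in each of the 5 comparisons below. RNA was sequenced from MuSCs of extraocular muscle (EOM), which moves the eye, and of tibialis anterior (TA), a limb muscle, of 10 *Tg:Pax7-nGFP* donor mice. In these mice nuclear GFP reports *Pax7*, the transcription factor that marks MuSCs, and cells were sorted by GFP. The donors were male littermates on a C57BL/6;DBA2 F1/JRj background, aged 7.6 weeks in Experiment 1 (4 mice) and 7 weeks in Experiment 2 (6 mice). Pre-graft libraries hold 500 cells each. For the grafts, EOM and TA MuSCs of a donor were placed in opposite TA muscles of an immunodeficient Rag2-/-;γC-/- recipient, injured with cardiotoxin a day earlier. GFP-positive cells were re-isolated on day 21 by the labels. The methods of the study give a range of weeks that begins there, and its results text gives a later day. Every graft therefore came from a regenerated TA of a recipient without lymphocytes, whichever muscle the cells came from. Of the 40 RNA libraries, 30 passed the quality limits of the study and were compared: 8 EOM and 8 TA before grafting, and 7 EOM and 7 TA after it.

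Notch receptors are read out between touching cells. A Delta or Jagged ligand on one cell pulls on a Notch receptor of its neighbour, the receptor is cut, and its intracellular part enters the nucleus, where it joins RBPJ and switches on *Hes* and *Hey* genes, which encode repressors. In adult muscle, MuSCs that lose RBPJ leave quiescence, while DLL4 and NOTCH1 are also well known from the sprouting endothelium of blood vessels, and NOTCH3 from the mural cells around them. *Heyl* and *Hey1* are targets that quiescent MuSCs are known to hold, and collagen V genes and *Calcr*, the calcitonin receptor, belong to a route through which Notch signalling keeps MuSCs in their niche.

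Of the 10 genes, 7 have an entry in the RefSeq promoter table for GRCm38.p6, and *Hes1*, *Hey1* and *Heyl* do not. The window of *Dll4* is shown because this gene had the largest difference after grafting. It covers the 250 bases before the transcription start, chr2:119325534-119325783 on the + strand, 5′ to 3′, with no capitals because it holds no TGGGAA, the core sequence that RBPJ binds, on either strand.
*Dll4* promoter: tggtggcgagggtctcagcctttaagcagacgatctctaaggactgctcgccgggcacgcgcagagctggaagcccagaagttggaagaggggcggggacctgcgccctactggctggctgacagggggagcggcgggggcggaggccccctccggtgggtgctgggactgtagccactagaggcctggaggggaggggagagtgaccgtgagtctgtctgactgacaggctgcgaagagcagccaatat

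TGGGAA was found in 1 of the 7 member genes with an entry, *Rbpj* itself, and in none of the windows of *Notch1*, *Notch2*, *Notch3*, *Dll1*, *Dll4* and *Jag1*. By comparison, 21.6% of the 32851 windows of 250 bases in the table hold it on either strand. The *Rbpj* sites lie 149 bases (chr5:53590185-53590214) and 65 bases (chr5:53590269-53590298) before the start. *Lfng*, a glycosyltransferase that modifies Notch receptors and is described with the other pathway genes below, holds sites 135 bases (chr5:140607194-140607223) and 108 bases (chr5:140607221-140607250) before its start. Each is given as 30 bases of the + strand, with the motif or its reverse complement in capitals, and a match of letters is not evidence of binding.
*Rbpj* site 1: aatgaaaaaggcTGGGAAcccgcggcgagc
*Rbpj* site 2: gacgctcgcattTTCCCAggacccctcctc
*Lfng* site 1: ccagctgggtggTTCCCAgccccttgtccg
*Lfng* site 2: ccgtatcccacgTGGGAAggagagatctcc

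The 30 libraries held 3326270 to 14402975 reads in all and 963669 to 4170442 reads on genes. Values are log2 RPM, reads scaled to the library size on a log2 scale, as the authors deposited them, and a gene without a read stands at 0.9 of a read. Mitochondrial genes took 2.96% to 28.8% of gene reads before grafting and 5.59% to 81.1% after it, and the median number of cells per graft in the labels was 35 for EOM and 26 for TA. The median of all genes tested differed by -1.09 (log2) between TA grafts and pre-graft TA, by -1.48 between EOM grafts and pre-graft EOM, and by -0.30 between pre-graft TA and EOM. Every difference is therefore given both on the deposited scale and with each library centred on the median of its genes, which brings those medians to -0.19, -0.23 and -0.06. The 8 MuSC markers (*Pax7*, *Myf5*, *Calcr* and others) were read in every pre-graft library and summed to 11988 to 22397 RPM there, against 197 to 14112 RPM in the grafts, where 7 of the 8 were read in every library. The 10 endothelial markers (*Pecam1*, *Cdh5*, *Cldn5* and others) summed to 19.7 to 2862 RPM before grafting and 236 to 7792 RPM after it, when all 10 were read in every library. In such bulk samples fewer cells of a type and less RNA per cell cannot be told apart.

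All 3 receptors were well above detection in every library. *Notch1* encodes a receptor active both in MuSCs and in endothelium. It had values of 8.87, 9.23 and 9.40 log2 RPM (lowest, median, highest) in pre-graft EOM, 8.52, 9.23 and 9.74 in pre-graft TA, 8.49, 9.09 and 10.16 in EOM grafts, and 7.92, 9.77 and 10.33 in TA grafts. The 4 groups overlapped, and no neighbours in the order of their means differed by more than their pooled SD. *Notch2*, a paralogous receptor, stood at 7.60, 8.27 and 8.74 in pre-graft EOM and at 7.18, 8.04 and 8.72 in pre-graft TA. In EOM grafts it had 3.90, 6.46 and 8.22 log2 RPM, and in TA grafts 4.92, 6.10 and 7.27. Its highest TA graft therefore lay just inside the pre-graft range, and the order was pre-graft EOM and TA first and both grafts last. *Notch3*, the receptor also made by mural cells, had 8.17, 8.48 and 8.99 in pre-graft EOM, 8.30, 8.61 and 9.36 in pre-graft TA, 6.57, 7.38 and 8.76 in EOM grafts and 5.57, 8.33 and 8.72 in TA grafts. The TA graft of mouse 3 of Experiment 2, which had 81.1% of its gene reads on mitochondrial genes, was the lowest TA graft for all 3 receptors and for *Dll4*, *Jag1*, *Rbpj* and *Heyl*, 7 of the 10 genes. The pre-graft TA library of the same donor was likewise the lowest of its group for 7 of the 10, *Notch1*, *Notch3*, *Dll4*, *Rbpj* and the 3 targets.

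**Figure D1:**
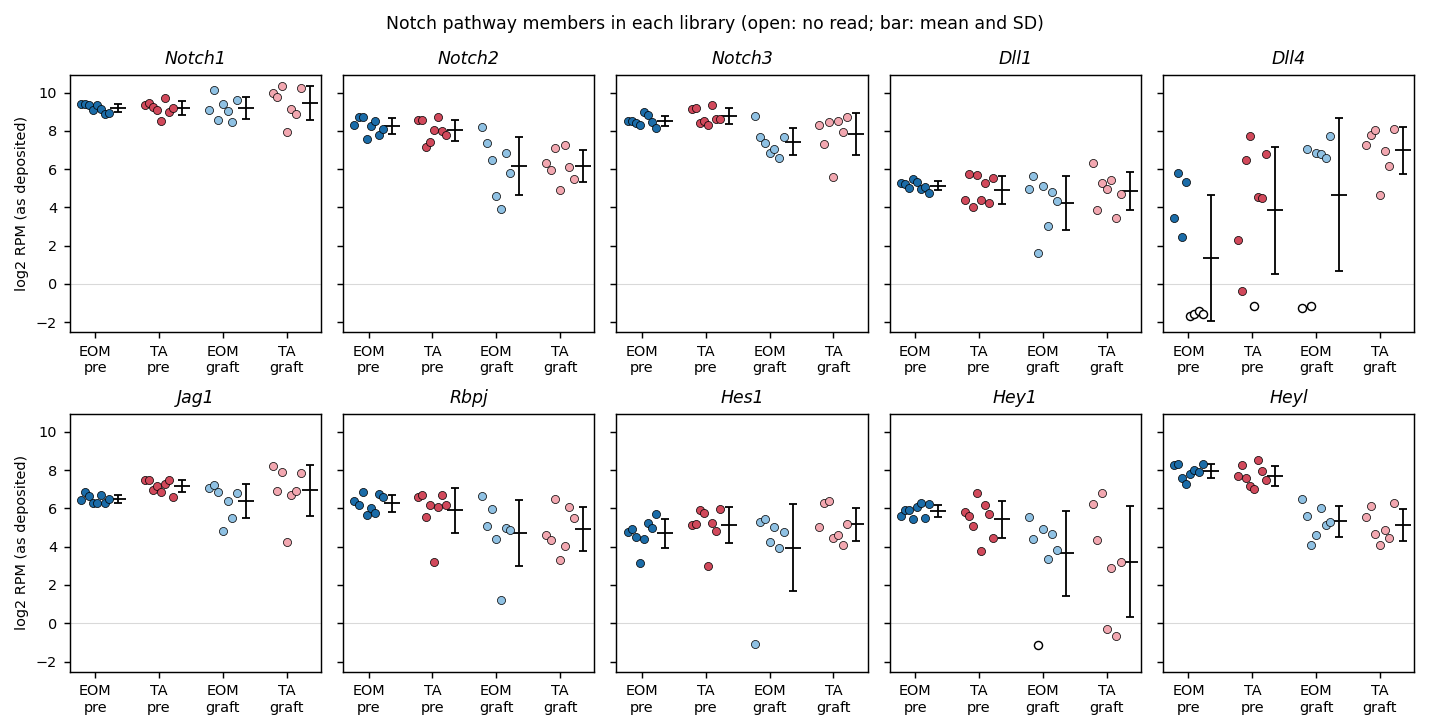
Level of each of the 10 genes in the 30 libraries, in log2 RPM as deposited, by group (EOM and TA, before and after grafting). Each point is a library, open points have no read of the gene, and bars show the mean and SD of the group. *Heyl* grafts sit between 4.10 and 6.49, below every pre-graft library on this scale but not in EOM with libraries centred, while *Dll4* runs from libraries without a read to 8.11.

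The ligands differed in level and in spread. *Dll1*, the Delta ligand that differentiating muscle cells are known to present, had 4.78, 5.14 and 5.50 log2 RPM in pre-graft EOM, 4.04, 4.84 and 5.77 in pre-graft TA, 1.60, 4.82 and 5.62 in EOM grafts and 3.44, 4.96 and 6.30 in TA grafts. Its 4 medians lay within 0.32 of each other, and the groups overlapped throughout. *Jag1*, a Jagged ligand, had 6.26, 6.49 and 6.85 in pre-graft EOM, 6.62, 7.22 and 7.50 in pre-graft TA, 4.83, 6.82 and 7.22 in EOM grafts and 4.24, 6.91 and 8.20 in TA grafts. Pre-graft EOM and TA overlapped in *Jag1* by a narrow margin, and the grafts covered both. *Dll4*, the Delta ligand of sprouting endothelium, had no read in 4 of 8 pre-graft EOM libraries and 10 to 87 reads in the others. It had 0 to 500 reads in pre-graft TA, with 1 of 8 libraries at 0, and 0 to 409 reads in EOM grafts, with 2 of 7 at 0. In the 7 TA grafts it had 31 to 545 reads, or 4.67, 7.28 and 8.11 log2 RPM, so that TA grafts were the group in which *Dll4* was read throughout.

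*Rbpj* encodes the DNA-binding protein through which the Notch receptors act. It had 5.63, 6.28 and 6.85 log2 RPM in pre-graft EOM, 3.18, 6.17 and 6.69 in pre-graft TA, 1.20, 4.98 and 6.63 in EOM grafts and 3.30, 4.64 and 6.52 in TA grafts. The highest libraries of the 4 groups lay between 6.52 and 6.85, and the grafts spread downwards from there.

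Of the targets, *Hes1*, a repressor used by many pathways, stood at 3.16, 4.84 and 5.71 log2 RPM in pre-graft EOM, 3.01, 5.19 and 5.99 in pre-graft TA, -1.09, 4.77 and 5.44 in EOM grafts and 4.11, 5.04 and 6.40 in TA grafts. Its medians lay within 0.43 of each other. *Hey1* had 5.47, 5.92 and 6.27 in pre-graft EOM, 3.77, 5.65 and 6.79 in pre-graft TA, -1.14, 4.39 and 5.53 in EOM grafts and -0.65, 3.19 and 6.79 in TA grafts. *Hey1* had the widest spread of the targets in TA grafts (SD 2.90, n = 7), from 1 read in the lowest library to 213 in the highest. *Heyl* had 7.28, 7.96 and 8.33 in pre-graft EOM, 6.99, 7.64 and 8.54 in pre-graft TA, 4.10, 5.30 and 6.49 in EOM grafts and 4.11, 4.89 and 6.27 in TA grafts. On the deposited scale, where the median of all genes also fell, it was the only one of the 10 genes whose grafts all lay below all pre-graft libraries of either muscle. The share of all genes separated in this way was not counted. With libraries centred the EOM groups overlapped. The EOM graft of mouse 4 of Experiment 2 then had 7.37, and the pre-graft EOM library of mouse 1 of Experiment 2 had 6.61.

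Levels of different genes can be compared only per length. On the scale of log2 RPM per kilobase of exons, *Heyl* (5.59 ± 0.37, SD, n = 8), *Notch3* (5.51 ± 0.26) and *Notch1* (5.36 ± 0.21) led in pre-graft EOM, and *Notch3* (5.76 ± 0.41), *Notch1* (5.37 ± 0.36) and *Heyl* (5.36 ± 0.52) led in pre-graft TA. The first 3 spanned 0.23 in EOM and 0.40 in TA, no more than the largest SD among them. In both muscles *Dll4* stood lowest, at -0.59 ± 3.28 in EOM and 1.91 ± 3.31 in TA. In TA grafts the order was *Notch1* (5.63 ± 0.87, n = 7), *Dll4* (5.05 ± 1.23) and *Notch3* (4.82 ± 1.10), with *Heyl* at 2.79 ± 0.84 and *Rbpj* lowest at 1.25 ± 1.16. *Heyl* thus moved from rank 3 before grafting to rank 6 of 10 in TA, and *Dll4* from rank 10 to rank 2. In EOM grafts *Notch1* (5.36 ± 0.58), *Notch3* (4.42 ± 0.72) and *Jag1* (3.83 ± 0.89) led, and *Heyl* (2.97 ± 0.81) had rank 4. The lengths are those of all annotated exons of a gene, and with its longest transcript instead *Rbpj* came out 1.22 higher in every group, which left it between rank 8 and rank 10. With that length *Notch1* had rank 1 in all 4 groups, and *Heyl* had rank 2 in pre-graft EOM, rank 3 in pre-graft TA, rank 5 in EOM grafts and rank 7 in TA grafts. The order of the leading genes before grafting thus depended on the length used.

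The first comparison asked whether MuSCs of the 2 muscles differ before grafting. A gene was called where limma gave an adjusted p under 0.05 (Benjamini-Hochberg over all genes tested) with a log2 difference beyond 1 in size. None of the 10 genes was called, against 4.56% of all 13217 genes tested on the deposited scale and 3.85% on the centred one. *Jag1* came nearest, with a mean of 6.50 ± 0.22 in EOM (SD, n = 8) and 7.17 ± 0.32 in TA (n = 8), a difference of 0.66 (SE 0.16, 1.59-fold) and an adjusted p of 0.0119. It was higher in TA in all 7 donors with both libraries, and the centred difference was 0.90 (SE 0.15, adjusted p = 0.000436), with no overlap between the groups. Within Experiment 2 the deposited difference was again 0.66, with an adjusted p of 0.0772, and the centred one 0.97 (adjusted p = 0.00796). Without regard to size, 1.73% of all genes had an adjusted p under 0.05 and were higher in TA on the deposited scale, and 2.81% on the centred one.

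*Notch3* differed by 0.25 (SE 0.17, adjusted p = 0.359) before grafting on the deposited scale and by 0.49 (SE 0.14, adjusted p = 0.0372) on the centred one, where it was higher in TA in 6 of 7 donors. For *Notch1* and *Notch2* the deposited differences were 0.01 (95% interval -0.30 to 0.32) and -0.21 (-0.67 to 0.24), so that a difference of 2-fold lay outside both intervals. The intervals of *Dll1* (-0.83 to 0.38), *Hes1* (-0.42 to 1.24) and *Rbpj* (-1.17 to 0.41) were wider. The targets *Hey1* (-0.44, adjusted p = 0.417) and *Heyl* (-0.22, adjusted p = 0.522) had differences close to the shift of all genes.

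*Dll4* had the largest difference of the 10 genes before grafting, 2.50 (SE 1.38), but an adjusted p of 0.270, and the direction differed between the experiments. In Experiment 1 its mean was 3.91 log2 RPM in 3 EOM libraries and 0.95 in 2 TA libraries, and in Experiment 2 it was -0.17 in 5 EOM libraries and 4.82 in 6 TA libraries. Within Experiment 2 the difference was 4.99 (adjusted p = 0.0759). The endothelial markers moved with it. In each group that held libraries without a *Dll4* read, those libraries had a lower endothelial sum than the libraries with one: 102 to 249 RPM against 276 to 901 in pre-graft EOM, 19.7 against 190 to 2862 in pre-graft TA, and 236 to 1052 against 1361 to 6680 in EOM grafts. *Cdh5*, an endothelial cadherin, was itself called higher in TA before grafting (4.09, SE 1.19, adjusted p = 0.0364), and it kept that call in 7 of 16 fits without 1 library. *Tek*, an endothelial receptor, went the other way and was called lower in TA (-1.45, SE 0.30, adjusted p = 0.00322, -1.21 centred), in 16 of 16 fits without 1 library but not within Experiment 2. These were the 2 calls among the 10 endothelial markers before grafting. The part of endothelial RNA in the *Dll4* values was not tested.

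The next comparisons set the grafts of each muscle against its pre-graft libraries. By the labels every pre-graft library held 500 cells and every graft held fewer. Grafts also came from an injured host muscle and were re-isolated from it. Cell number, host and re-isolation thus changed together with stage, and the part of each in the differences below was not tested. In TA on the deposited scale, *Notch2* fell by 1.86 (SE 0.38, 3.64-fold, adjusted p = 0.00194) and *Heyl* fell by 2.57 (SE 0.40, 5.93-fold, adjusted p = 0.000275), both in 7 of 7 donors. *Dll4* rose by 3.14 (SE 1.01, adjusted p = 0.0211), also in 7 of 7 donors. Over all 13076 genes, 30.9% were called lower and 3.79% higher, so 2 of 10 lower was no more than the background. With libraries centred, *Heyl* remained lower (-1.67, SE 0.32, adjusted p = 0.00181) and *Dll4* higher (4.04, SE 1.05, adjusted p = 0.0132), and *Notch1* was called higher (1.16, SE 0.21, 2.23-fold, adjusted p = 0.00105) in 7 of 7 donors. *Notch2* then differed by -0.97 (adjusted p = 0.0158), just short of the limit of size, and passed it in 6 of 15 fits without 1 library. On that scale 5.68% of all genes were called lower and 7.67% higher.

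The other TA values did not pass. *Hey1* differed by -2.22 (SE 0.89, adjusted p = 0.0539) on the deposited scale and passed with the donor as a block (-2.19, adjusted p = 0.033). It also passed without TA graft mouse 2 of Experiment 2 (-2.81), TA graft mouse 3 of Experiment 1 (-2.72) or pre-graft TA mouse 3 of Experiment 2 (-2.45), while the centred difference was -1.32 (adjusted p = 0.284). *Notch3* (-0.94, adjusted p = 0.0659) and *Rbpj* (-0.97, adjusted p = 0.162) lay near the shift of all genes and came to -0.04 and -0.08 with libraries centred. *Hes1*, *Dll1* and *Jag1* differed by 0.04, -0.06 and -0.22 on the deposited scale and by 0.93, 0.84 and 0.68 on the centred one, with adjusted p-values of 0.090 to 0.247 on the latter. Over the 10 genes the median difference was -0.58 beside -1.09 for all genes, and 0.32 beside -0.19 when centred.

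The calls of *Dll4* and *Notch2* in TA depended on how the libraries were handled. Within Experiment 2, which held 12 of the 15 libraries, *Dll4* differed by 2.13 (adjusted p = 0.123) and was no longer called, *Notch2* fell by 1.72 (adjusted p = 0.0225) and *Heyl* fell by 2.54 (adjusted p = 0.0065). Experiment 1 had 1 TA graft that passed, so no test was made within it, and its values there were 7.28 log2 RPM for *Dll4* against a pre-graft mean of 0.95. edgeR and DESeq2 on recovered reads gave *Dll4* 1.91 (adjusted p = 0.16) and 2.02 (adjusted p = 0.158), and *Notch2* -0.98 (adjusted p = 0.0219) and -0.88 (adjusted p = 0.0109), short of the limit of size. *Heyl* was called in each of the 13 alternative fits and in each of the 15 fits without 1 library, on the deposited scale and on the centred one.

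**Figure D2:**
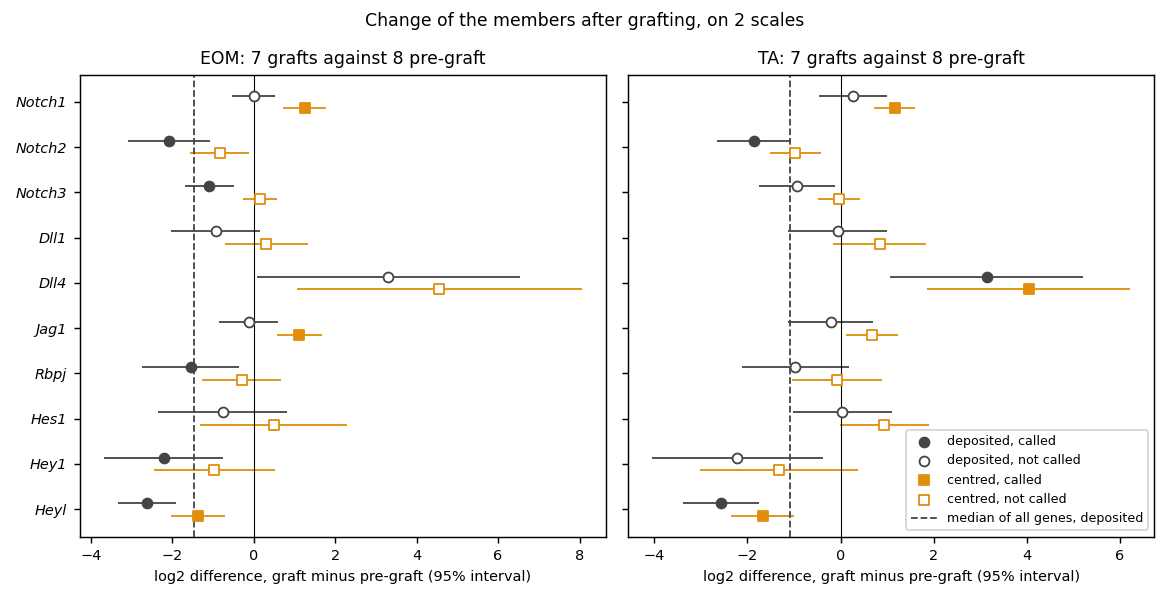
Log2 difference of each of the 10 genes after against before grafting, in TA and in EOM, on the deposited and the centred scale. Points are estimates with 95% intervals, filled points are called, and the dashed line is the median of all genes tested on the deposited scale (-1.09 in TA and -1.48 in EOM). *Heyl* lies below 0 and is filled on both scales in both muscles, and *Dll4* lies farthest above 0.

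In EOM on the deposited scale, 5 of the 10 genes fell, *Notch2* (-2.08, SE 0.49, adjusted p = 0.00227), *Notch3* (-1.09, SE 0.29, adjusted p = 0.00507), *Rbpj* (-1.55, SE 0.57, adjusted p = 0.025), *Hey1* (-2.21, SE 0.71, adjusted p = 0.0125) and *Heyl* (-2.62, SE 0.34, adjusted p = 4.92e-05). None was called higher. With the experiment as covariate, *Notch3* and *Rbpj* lost their calls. Experiment 1 had 1 EOM graft that passed. Its differences were 0.29 for *Notch3*, 0.16 for *Rbpj*, -0.28 for *Hey1*, -0.36 for *Notch2* and -1.58 for *Heyl*. Within Experiment 2 they were -1.34, -1.75, -2.56, -2.22 and -2.73 in the same order. *Notch3* kept its call in 13 of 15 fits without 1 library, missing it without EOM graft mouse 3 (-0.996) or mouse 5 (-0.95) of Experiment 2, and *Rbpj* in 14, missing it without EOM graft mouse 4 of Experiment 2 (-0.96). Of all 13094 genes, 55.8% were called lower and 3.51% higher, so the 5 do not stand out from the table. With libraries centred, *Heyl* was the only one of the 5 still called (-1.37, SE 0.32, 2.58-fold, adjusted p = 0.00809), and it was lower in 5 of 6 donors. In Experiment 2 alone with centred libraries *Heyl* was not called. *Notch1* (1.26, SE 0.25, 2.39-fold, adjusted p = 0.00311) and *Jag1* (1.12, SE 0.26, 2.18-fold, adjusted p = 0.00813) were called higher on that scale, in 5 of 6 and 6 of 6 donors, where 6.65% of all genes were called higher and 4.84% lower. On the deposited scale these 2 genes differed by 0.01 and -0.13, beside -1.48 for the median gene. *Notch3* changed sign with the scale, to 0.16 (adjusted p = 0.621), and *Rbpj* came to -0.30 (adjusted p = 0.705).

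*Dll4* differed by 3.31 in EOM (SE 1.55, adjusted p = 0.067) and by 4.56 with libraries centred (adjusted p = 0.0796). It was higher after grafting in 5 of 6 donors, and the EOM grafts without a read were those of mouse 4 of Experiment 1 and mouse 2 of Experiment 2, which also had the lowest endothelial sums of the EOM grafts. Without either of them it was called (4.29 and 4.28, adjusted p = 0.0162 and 0.0174). Within Experiment 2 it was called (5.82, adjusted p = 0.00851), as it was by edgeR (4.16, adjusted p = 0.0455) but not by DESeq2 (4.26, adjusted p = 0.0964). *Hes1* (-0.76, adjusted p = 0.380) and *Dll1* (-0.93, adjusted p = 0.122) did not pass on either scale. The value of *Hes1* rested on EOM graft mouse 4 of Experiment 1, which had 1 read: without it the difference was 0.078 (range over the fits without 1 library -1.01 to 0.078), and with libraries centred *Hes1* was then called higher (1.46, adjusted p = 0.0197). Leaving that library out raised the number of members called on the centred scale from 3 to 6, with *Notch2* (-1.04, adjusted p = 0.0451) and *Dll4* (5.67, adjusted p = 0.015) added as well. *Jag1* fell short of the limit of size without EOM graft mouse 4 of Experiment 2 (0.98 centred). With the donor as a block *Rbpj* was no longer called (-1.37, adjusted p = 0.0813), and with the block and libraries centred only *Jag1* was (1.31, adjusted p = 0.0347), with *Notch1* at 1.19 (adjusted p = 0.0504) and *Heyl* at -1.34 (adjusted p = 0.057).

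EOM and TA grafts were then compared, which asks whether the muscles still differ once both have regenerated in TA. None of the 10 genes was called, and all adjusted p-values were 1 on the deposited scale and 0.933 or above on the centred one. The share called among all 12377 genes was 0.0% on the deposited scale and 0.0% on the centred one, with 452 genes at an unadjusted p under 0.05 in limma, 0 called by edgeR and 3 by DESeq2. Intervals were wide: for *Jag1*, which was higher in TA before grafting, the difference was 0.57 (95% interval -0.58 to 1.73), and for *Heyl* -0.17 (-1.40 to 1.06). *Dll4* had the largest difference, 2.33 (0.22 to 4.44). The change of EOM minus that of TA was called for none of the 10 genes, against 0.208% of 14428 genes on the deposited scale and 0.166% on the centred one. For *Heyl* it was -0.05 (-1.10 to 1.00), for *Notch2* -0.21 (-1.49 to 1.06), and for *Dll4* 0.17 (-3.83 to 4.16). The calls that were made in one muscle only, such as *Notch3* and *Rbpj* in EOM, are thus not shown to differ between the muscles.

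Cell type markers moved together with these changes. In TA grafts 9 of 10 endothelial markers rose on the deposited scale and 10 of 10 on the centred one, *Cldn5* by 4.88 (adjusted p = 0.00269) and *Pecam1* by 3.10 (adjusted p = 0.00975). In EOM grafts 9 of 10 rose on both, *Cldn5* by 6.84 and *Pecam1* by 5.70. The sum over the list had a median of 507 RPM in pre-graft TA and 5002 RPM in TA grafts, and of 263 and 3686 RPM in EOM. Of 8 mural markers, 3 rose in TA and 2 in EOM on both scales, *Rgs5*, a marker of pericytes, in both muscles (3.14 and 3.70), and *Acta2* and *Mcam* fell in EOM on the deposited scale. The 8 MuSC markers all fell on the deposited scale in both muscles, and on the centred one 7 fell in TA and 2 in EOM, *Pax7* by 3.07 in TA (2.18 centred). Of all genes, 30.9% in TA and 55.8% in EOM were called lower on the deposited scale, and 5.68% and 4.84% on the centred one. The shares called higher were 3.79% in TA and 3.51% in EOM, and 7.67% and 6.65% when centred. The part of these cell types in the values of *Dll4*, *Notch1*, *Notch3* and *Heyl* was not tested.

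**Figure D3:**
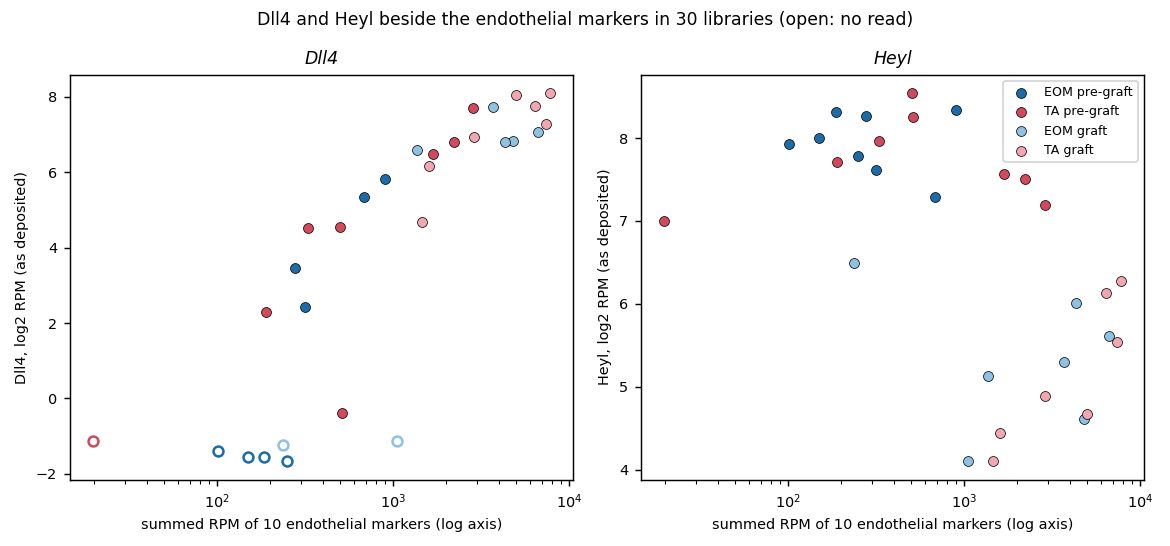
*Dll4* and *Heyl* (log2 RPM) in the 30 libraries against the summed RPM of 10 endothelial markers, on a log axis. Points are libraries, coloured by group, and open points have no read. All 7 libraries without a *Dll4* read have sums of at most 1052 RPM. On this deposited scale all *Heyl* grafts lie below all pre-graft libraries. The sums reach 2862 RPM at most before grafting and 7792 RPM in grafts, so the highest sums have no pre-graft library beside them. The part of endothelial RNA in the *Heyl* values was not tested.

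Other markers also moved with grafting, and the shares of all genes called in the graft comparisons, given above, apply to these counts too. Myofibre genes rose, 2 of 6 in TA (*Ttn* by 3.53 and *Mylpf* by 2.51) and 5 of 6 in EOM, and 4 of 6 fibro-adipogenic markers rose in TA and 1 in EOM, while *Col3a1* fell in TA on the deposited scale. Of the 5 macrophage markers, *Lyz2* rose in TA. It kept its call in 7 of 15 deposited and 15 of 15 centred fits without 1 library. It lost it with no filter on low values, with a stricter one and with all libraries. The summed macrophage markers had a median of 27.0 RPM in pre-graft TA and 28.3 RPM in TA grafts. *Cd68* fell in EOM on the deposited scale only. The Schwann cell marker *Mbp* fell in EOM on the deposited scale only. Of the differentiation genes, *Myog* and *Tmem8c* fell in TA on the deposited scale only, and *Ckm* rose in EOM. The early response genes that dissociation switches on fell in TA (7 of 8 on the deposited scale, 5 centred, *Fos* by 2.50), and in EOM 6 fell on the deposited scale while none fell and *Ier2* rose on the centred one. On the deposited scale 30.9% of all genes in TA and 55.8% in EOM were called lower, so little can be read from the 6 in EOM. None of the proliferation genes tested, 6 in TA and 3 in EOM, was called on either scale. Before grafting, *Fos* (1.00) and *Nr4a1* (1.35), both early response genes, were higher in TA, the muscle in which *Jag1* was higher. *Nr4a1* was called in all 13 alternatives and all 16 fits without 1 library, whereas *Fos* was called in 8 and in 9 and lost its call with the donor as a block and within Experiment 2. The MuSC marker *Pax7* was also higher in TA before grafting on both scales (1.15). Markers of other cells differed on both scales too. *Myh11* of smooth muscle (3.93) and the myofibre genes *Acta1* (2.89) and *Myh4* (2.63) were higher in TA. *Dcn* of fibro-adipogenic cells (-5.62) and *Mbp* (-5.17) were lower. Within Experiment 2, *Myh11*, *Dcn*, *Myh4* and *Mbp* were not called. The part of these genes in the difference of *Jag1* was not tested.

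The remaining genes of the pathway were taken as lists by role. Of 6 other receptors and ligands, 3 passed the filter in either graft comparison. *Notch4*, a receptor of endothelium, rose in TA (2.55, SE 0.99, adjusted p = 0.0469, 3.44 centred), with medians of 1.96 log2 RPM before and 5.20 after grafting, and kept its call in 4 of 15 fits without 1 library. *Jag2* rose in EOM (2.98, SE 1.06, adjusted p = 0.0209, 4.23 centred), from a median of 1.73 to 5.19, and lost its call with the donor as a block. *Dlk1*, an atypical ligand, had no read in any EOM graft and 1 read in 1 of 7 TA grafts. Of 8 other *Hes*, *Hey* and feedback genes, 3 passed the filter. *Hes6* fell in EOM (-4.16, SE 0.90, adjusted p = 0.00141, -2.91 centred), and 3 of 7 EOM grafts had no read of it, against at least 1 read in all 16 pre-graft libraries. It lost its call with edgeR, with DESeq2 and with the block on centred libraries. *Hes2*, *Hes3*, *Hes5* and *Helt* had no read in any of the 30 libraries.

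Of the 5 collagen V, collagen VI and *Calcr* genes, 4 fell in TA and 4 in EOM on the deposited scale (where 30.9% and 55.8% of all genes were called lower), and 2 and 1 on the centred one. *Col6a1*, a collagen VI chain, fell in both muscles on both scales, by 3.36 in TA (SE 0.50, adjusted p = 0.000267, 2.46 centred) and by 2.55 in EOM (SE 0.38, adjusted p = 0.00011, 1.30 centred). *Calcr* fell in TA by 3.66 (SE 0.74, 2.76 centred), from 7.19, 8.29 and 8.71 log2 RPM to -0.29, 4.80 and 7.55. Collagen genes are also made by fibro-adipogenic cells, whose markers are given above. No other pathway list had called genes before grafting. In this one *Col5a3* was 1.32 higher in TA (SE 0.25, adjusted p = 0.00139) and *Col6a2* 1.77 lower (SE 0.37, adjusted p = 0.00332), on both scales, and *Col6a1* was lower on the deposited one alone.

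Of the 17 coactivators and corepressors, 5 fell in TA and 11 in EOM on the deposited scale (30.9% and 55.8% of all genes), and 1 and 2 on the centred one, where *Tle1* rose in TA. *Tle2*, a corepressor, fell in both muscles on both scales (-3.59 in TA and -3.63 in EOM, -2.69 and -2.38 centred). In EOM it lost its call with edgeR, with DESeq2 and on centred libraries with the block or in Experiment 2 alone, and kept it in 10 of 15 centred fits without 1 library, and in TA it lost its call with edgeR and in Experiment 2 alone on centred libraries. None of the 10 cleavage enzymes, which include the gamma-secretase subunits, was called on the centred scale in either muscle, whereas 4 fell in each on the deposited one (30.9% and 55.8% of all genes). The median of that list was -1.24 in TA and -1.48 in EOM, beside -1.09 and -1.48 for all genes. Of the 6 glycosyltransferases that modify Notch receptors, 3 fell in TA and 2 in EOM on the deposited scale (30.9% and 55.8% of all genes), and on the centred one none and 1. *Lfng* rose in TA, from 1 read in 1 of 8 pre-graft libraries to 104 reads over 5 of 7 grafts (ratio of pooled rates 137, exact 95% interval 24.1 to 5461, covering counting error only, limma adjusted p = 0.00705). That p-value is not separate support, because *Lfng* passed the filter on low values only through the grafts. It lost its call with a stricter filter on low values and with all libraries. *Mfng*, a related enzyme, rose in EOM by 3.38 (SE 0.86, adjusted p = 0.00365), and *Rfng*, the third of the fringe genes, fell there by 3.58 (SE 0.70, adjusted p = 0.000785). *Mfng* lost its call with a stricter filter on low values and with all libraries. *Rfng* kept its call in 10 of 13 alternatives, not with edgeR, and in 6 of 15 centred fits without 1 library. Of 13 trafficking and ubiquitin ligase genes tested, 4 fell in TA and 9 in EOM on the deposited scale (30.9% and 55.8% of all genes), and 1 and 1 on the centred one. *Dtx4* fell in TA by 3.44 (2.55 centred), and in EOM *Itch*, a ubiquitin ligase, fell by 2.87 (1.62 centred) while *Neurl1b*, which acts on ligands, rose by 2.30 (3.55 centred) from a level of at most 6 reads a library. *Neurl1b* lost its call with a stricter filter on low values, with all libraries, and with the block on centred libraries.

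**Figure D4:**
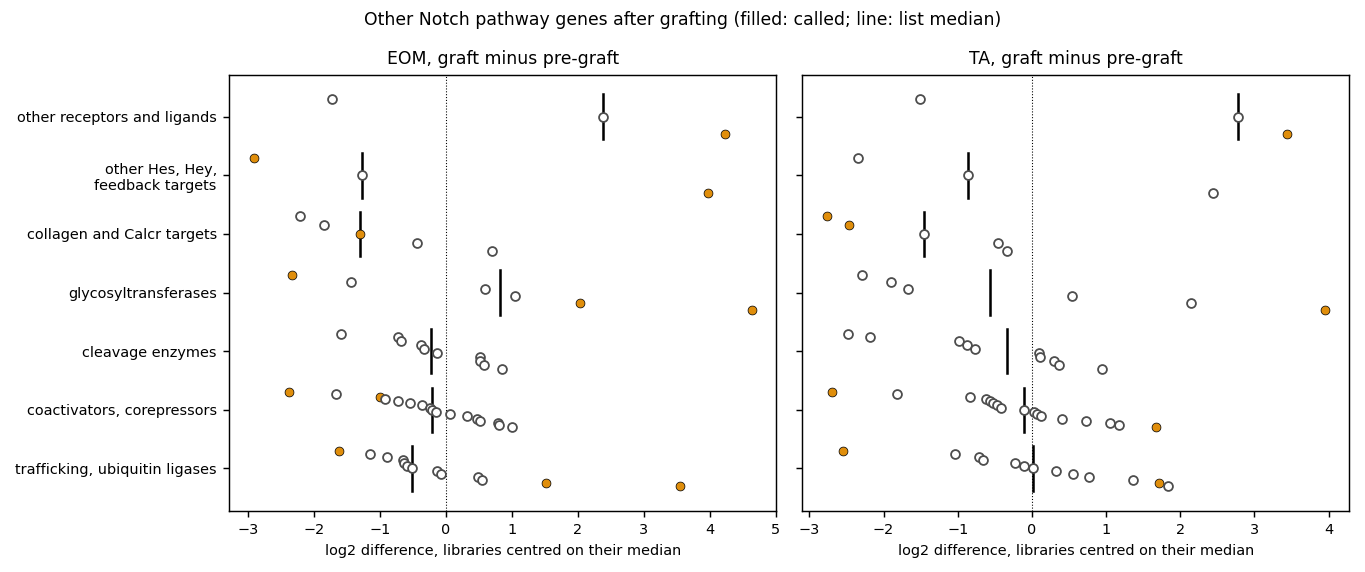
Centred log2 difference of the other Notch pathway genes after against before grafting, by list, in TA and EOM. Each point is a gene, filled points are called on that scale, and the line is the median of the list. *Lfng* and *Notch4* in TA and *Jag2* and *Mfng* in EOM are filled above 0, and *Tle2* and *Col6a1* are filled below 0 in both muscles.

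The genes whose pattern was most like each member were sought among 11439 genes over the 30 libraries, by Pearson's r of centred log2 RPM. The libraries share groups, depth and cell mixture, so r is a description. *Dll4* had the highest values, with *Sox7* (0.938), *Dysf* (0.938) and *Erg* (0.925), of which *Sox7* and *Erg* encode transcription factors of endothelium. *Notch1* followed *Mgat4a* (0.920), *Rapgef1* (0.918) and *Srgn* (0.918), and *Hes1* followed *Ppp1r18* (0.866). *Heyl* was nearest to *Gm13703* (0.817), *Cbs* (0.810) and *Rdh5* (0.807), and *Hey1* to *Rnf145* (0.858). *Notch2* was nearest to *Frem1* (0.838), *Jag1* to *Ppfibp1* (0.816), *Dll1* to *Lag3* (0.780) and *Rbpj* to *B9d2* (0.771). *Notch3* had the lowest leading value, 0.704 with *Cbx3*. None of these genes is in a list above.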

How the data were processed

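Cells were lysed and RNA was separated from DNA by the G&T-seq method, without strand information, so reads of overlapping and antisense genes cannot be told apart. Per the labels and methods, reads were trimmed with Trim Galore 0.4.4 and aligned to GRCm38 with HISAT2 2.1.0. Which program counted the reads of each gene is not given in the sources used here. The authors deposited log2 RPM values from Seqmonk for 40 RNA libraries, and tables of library measures that hold total read counts and the percent of them that fell in exons, in genes, in rRNA or on the mitochondrial genome. The 40 bisulfite libraries were not analysed. The deposited table has 25965 rows, of which 1 per symbol was kept. Whole reads were recovered from the log2 values, and 99.997% of values came within 0.05 of a whole read. Genes that share reads with near-identical copies may have been split by the counting.

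Libraries were grouped by muscle and stage, and 10 of 40 that the study does not pass for depth or for shares of reads in genes and exons, or as an outlier (1), were left out. limma 3.58.1 (R 4.3.3) was fitted with a trend on the deposited log2 RPM for genes above 1 in at least 4 libraries compared, two-sided, with Benjamini-Hochberg adjustment over all genes tested. edgeR 4.0.16 and DESeq2 1.42.0 were run on recovered reads. Scripts were tested on simulated data with 200 genes changed. p-values of the main fits measure the spread between libraries of a group, each from a different donor mouse. Donor, cell number and, in grafts, the recipient are not told apart in that spread. EOM and TA, and pre-graft and graft, libraries with the same number come from the same donor, and their deviations from group means had correlations of -0.22 to 0.18 (median 0.04, 26 pairs), and the donor was a block in an alternative. The members and gene lists were chosen with earlier results of these data known. Genes of other lists are named with values where called on both scales, at most 5 per list by size, and *Dlk1*, *Hes2*, *Hes3*, *Hes5*, *Helt*, *Cd68*, *Col3a1*, *Acta2*, *Mcam*, *Mbp*, *Myog*, *Tmem8c*, *Tle1* and *Ier2* were named after their values were seen. Some results on single genes are left out here. Alternatives were a pseudocount of 1, no filter on low values, a filter of 2 in at least 7 libraries, a block for the donor, a covariate for the experiment, Experiment 2 by itself, all 40 libraries, RPM without mitochondrial genes, centring on the library median, edgeR, DESeq2 and each library left out in turn. The block and Experiment 2 alone with centred libraries, and centred libraries with each left out in turn, were added after seeing the data.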

Additional observations from a re-analysis of the deposited data

Results flagged for a closer look

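In 6 of the 40 combinations of member and group, the lowest library lay far from the rest by Dixon's test, and chance alone flags about 1 in 20 such groups. *Jag1* had 4.24 log2 RPM (23 reads) in the TA graft of mouse 3 of Experiment 2, with the next library at 6.68. In the pre-graft TA library of the same donor *Rbpj* stood at 3.18 (18 reads, next 5.57) and *Hes1* at 3.01 (16 reads, next 4.83). *Rbpj* had 1.20 (4 reads, next 4.39) in the EOM graft of mouse 4 of Experiment 2. *Hes1* had -1.09 (1 read, next 3.94) in the EOM graft of mouse 4 of Experiment 1. *Hey1* had -1.14 (0 reads, next 3.37) in the EOM graft of mouse 2 of Experiment 2. The pre-graft TA library of mouse 3 of Experiment 2 had a read for 10961 genes, the fewest of the 16 pre-graft libraries, and the EOM graft of mouse 2 of Experiment 2 for 9770, the fewest of the 14 grafts.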

How the results depend on the processing

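The count of called members was 0 under every alternative between the muscles, before and after grafting, and for the difference of changes. In TA after grafting it was 3, with 5 when all libraries were used, 4 with the replicate block, 2 in Experiment 2 alone, with edgeR, with DESeq2 and in Experiment 2 alone with centred libraries, and 3 to 5 without 1 library. The 5 arose without TA graft mouse 2 of Experiment 2 (*Notch3* and *Hey1* added) and without pre-graft TA mouse 3 of Experiment 2 (*Rbpj*, -1.36, and *Hey1* added). The genes called in TA changed too. Experiment 2 alone called *Notch2* and *Heyl*. *Notch1* and *Heyl* were called with edgeR, with DESeq2 and in Experiment 2 alone with centred libraries, and *Notch1*, *Dll4* and *Heyl* with libraries centred. In EOM the count was 5, and 4 to 6 without 1 library. It was 3 under the experiment as covariate, with libraries centred, with DESeq2 and in Experiment 2 alone with centred libraries. It was 2 with scaling without mitochondrial genes and 1 with the replicate block and centred libraries. In EOM, DESeq2 and the centred fit called *Notch1*, *Jag1* and *Heyl*, and edgeR called *Dll4* as well. The replicate block on the deposited scale changed only *Hey1* in TA and *Rbpj* in EOM, as given beside them. Differences that turned direction with one of both values significant were few. *Jag1* in TA came to 0.83 with DESeq2. *Jag1* in EOM came to 0.75 without mitochondrial genes, 1.12 centred, 1.08 with edgeR, 1.18 with DESeq2, 1.31 with the block and centring, and 1.27 in Experiment 2 alone centred. *Notch3* in EOM came to 0.16 centred, 0.0485 with edgeR, 0.14 with DESeq2, 0.14 with the block and centring, and 0.0768 in Experiment 2 alone centred. These settings scale the libraries anew. Of the other differences of single members in EOM, 24 lost and 8 gained significance or size under an alternative other than leaving out a library, against 9 and 8 in TA, and the cause was not tested. Another 195 sign changes were significant on neither side. *Dll4*, *Hey1* and *Hes1* had libraries with 0 or 1 read, and the cause of these low counts was not tested.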
